A study of Mus musculus with 12 samples.

Results

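The miR-379 to miR-410 cluster is a tight row of imprinted microRNA (miRNA) hairpins on distal mouse chromosome 12, and its mature miRNAs were followed here in the hippocampus. Members were chosen by name alone: every miRNA of the count table that carries a cluster number, from either arm of its hairpin, with at least 1 count over the 12 libraries. Of 75 names that matched, 71 had a count and are the members, out of 1325 miRNAs with a count in the table; 35 are 5p arms and 36 are 3p arms. The other 4 names, miR-654-3p, miR-654-5p, miR-1197-5p and miR-496b, were at 0 counts in all libraries. The mice were males of the C57BL/6 background at 3 months of age, 6 of them wild type (WT) and 6 knockouts of Gld2 (GLD2KO). All were littermates from matings of heterozygotes, and the labels name no treatment. Small RNA of each hippocampus sample was sequenced as 1 library. Gld2 extends RNA 3′ ends with adenosines, and the study asked what it contributes to untemplated additions on miRNAs. The table gives counts per mature miRNA, so levels were compared here, not 3′ ends. The Gld2 transcript was not analysed here, so each genotype is taken from its label.

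The cluster belongs to the Dlk1-Dio3 domain, in which the maternal chromosome expresses noncoding RNAs and the paternal chromosome expresses protein-coding genes. Its hairpins are cut from a long maternal transcript that is strongly expressed in neurons, where the factor Mef2 and synaptic activity are known to induce it. Each hairpin can give a mature miRNA from its 5p and its 3p arm, and the seed of a mature miRNA, bases 2 to 8, largely decides which mRNAs it pairs with. Several members are known regulators of dendrites and synapses, among them miR-134, which restrains dendritic spine size by repressing Limk1.

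The mature sequences that carry the results are shown from the RefSeq table for build GRCm38, with the seed in capitals. RefSeq sequences were matched for 67 of the 71 members; miR-376c-3p, miR-485-5p, miR-487b-3p and miR-539-3p are named only. The first set holds the 6 members with the highest mean level.
miR-376a-3p: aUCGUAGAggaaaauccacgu
miR-369-3p: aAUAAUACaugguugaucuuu
miR-541-5p: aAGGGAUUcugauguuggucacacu
miR-382-5p: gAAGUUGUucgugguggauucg
miR-380-3p: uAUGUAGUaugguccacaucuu
miR-154-5p: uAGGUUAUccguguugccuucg

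The second set shows the miR-376 family, whose neighbouring hairpins were counted mostly from opposite arms, and a pair of cluster members whose 3p arms share a seed.
miR-376a-5p: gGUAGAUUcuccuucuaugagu
miR-376b-5p: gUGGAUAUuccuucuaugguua
miR-376b-3p: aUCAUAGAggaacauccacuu
miR-376c-5p: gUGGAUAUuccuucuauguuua
miR-379-3p: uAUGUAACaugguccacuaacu
miR-411-3p: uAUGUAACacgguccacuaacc

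The third set holds the synaptic miR-134-5p and members with a low p or with 1 library far from the others in the genotype comparison.
miR-134-5p: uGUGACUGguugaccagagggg
miR-495-3p: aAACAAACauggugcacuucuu
miR-539-5p: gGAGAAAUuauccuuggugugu
miR-543-5p: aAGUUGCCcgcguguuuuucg
miR-666-5p: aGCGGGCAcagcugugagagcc
miR-377-5p: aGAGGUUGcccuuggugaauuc

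Sequenced members were 18 to 25 bases long with a median of 22, and 37 of the 67 were 22 bases. Seeds were shared within the cluster by 5 pairs: miR-379-3p with miR-411-3p, miR-379-5p with miR-1193-5p, miR-299a-3p with miR-299b-3p, miR-410-5p with miR-494-5p, and miR-376b-5p with miR-376c-5p. Some seeds also occur outside the cluster, as that of miR-495-3p in miR-1192, that of miR-329-3p in miR-362-3p and that of miR-410-3p in miR-344d-3p and miR-344e-3p. Near-identical pairs were miR-299a-5p with miR-299b-5p and miR-376b-5p with miR-376c-5p, 1 edit apart, and miR-379-3p with miR-411-3p, 2 edits apart. The listed miR-299b-3p, of 18 bases, is the same as the first 18 bases of miR-299a-3p. How reads that match several names were counted is not given in the sources used here. The single values of these members, and arm ratios taken from them, are therefore uncertain. No group of members had the same counts in all libraries.

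Library totals lay between 2197915 and 3761106 counts. Levels are counts per 1000000 (CPM) after scaling by edgeR's TMM factors, and all 8 listed neuronal miRNAs were detected, with a summed level of 111694 to 366724 CPM in WT and 150724 to 281619 CPM in GLD2KO. Of the libraries, 3 stood apart. The standard deviation of the tested members' log2 deviations from their own means was 1.07 in WT replicate 3, 1.32 in GLD2KO replicate 1 and 1.11 in GLD2KO replicate 4, against 0.503 to 0.906 in the other 9. The same 3 libraries were wide over all tested miRNAs, at 1.17, 1.14 and 1.10 against 0.596 to 0.901. Counts over all tested members and the cluster's share are given both ways where they move by over 1.5 times or change direction without the 3. For shares by position or arm, and of other miRNAs of the locus, the ranges without the 3 are given.

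The hairpins lay on the plus strand of chromosome 12 (GRCm38, chr12:109709060-109743795), from miR-379 to miR-410, within 34.74 kb. The exception was miR-299b, on the minus strand at chr12:109710645-109710693, opposite the miR-299a hairpin. The noncoding gene Mirg (chr12:109729764-109749460, plus strand) contains the hairpins from miR-382 to miR-410, which gave 24 of the members; the other 47 come from hairpins upstream of it. The miR-134 hairpin (chr12:109734139-109734209) lies in a Mirg exon, those of miR-154 (chr12:109738433-109738498) and miR-541 (chr12:109742409-109742498) in Mirg introns, and the miR-369 hairpin (chr12:109743418-109743496) partly in an exon. The miR-376a hairpin (chr12:109723781-109723848) lies upstream of Mirg and in no annotated host gene.

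Although they come from 1 locus, the members' mean levels spanned 4.91 units on the log10 scale. The mean over the 12 libraries reached 1000 CPM for 7 members, 100 CPM for 33, 10 CPM for 52 and 1 CPM for 63. All 12 libraries held 59 of the members, and the other 12 members were at 0 in at least 1 library. The most abundant, miR-376a-3p, averaged 9099 CPM and ranked 23rd in the whole table, and miR-369-3p, which together with miR-496 and miR-543 is known to restrain N-cadherin in neural progenitors of the mouse neocortex, averaged 6554 CPM and ranked 28th. These 2 members held 47.4% of all cluster counts, and the 10 most abundant held 78.4%.

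The order at the top held in nearly all libraries, and was loose below it. miR-376a-3p exceeded miR-369-3p in 11 of 12 libraries, miR-369-3p exceeded miR-541-5p (2792 CPM) in 11, and miR-541-5p, which is known from rat cells to repress synapsin I, exceeded miR-382-5p (1466 CPM) in 11. From there neighbours in the order were within their spread: miR-382-5p exceeded miR-380-3p (1358 CPM) in 7 libraries, miR-380-3p exceeded miR-154-5p (1281 CPM) in 6, and miR-154-5p exceeded miR-376b-5p (1030 CPM) in 7. miR-379-5p averaged 863 CPM, miR-323-3p 598 CPM and miR-329-5p 596 CPM. Ligation and size selection act differently on different miRNAs, so such orders between miRNAs are those of the libraries. A count is a sequenced read of a mature miRNA, and levels were not scaled by length.

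**Figure D1:**
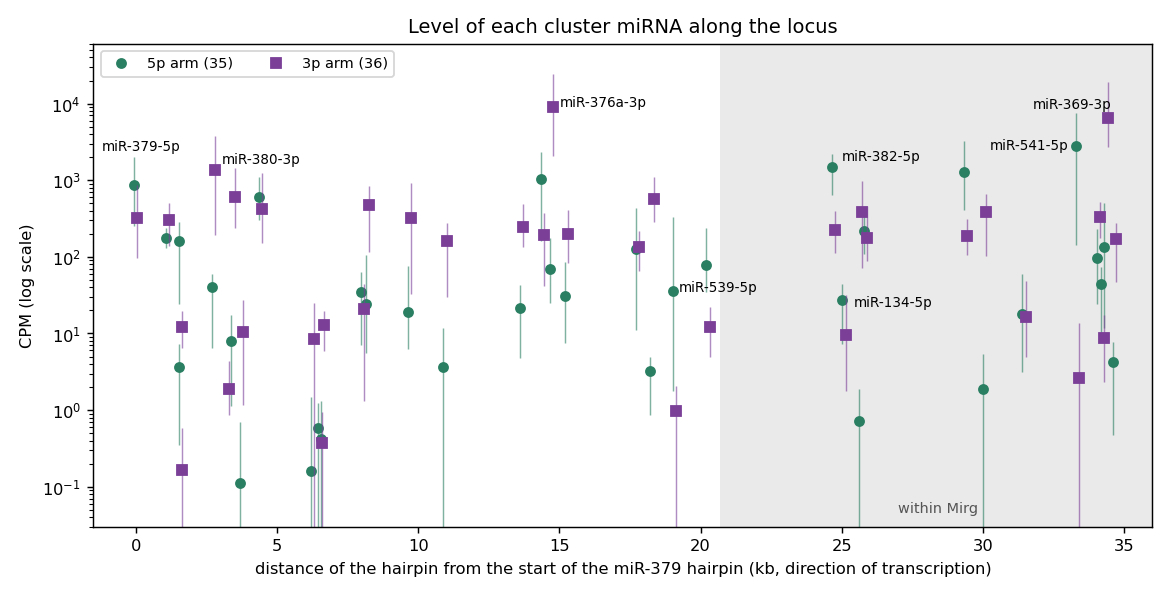
Mean level of each of the 71 members in CPM (log axis) against the distance of its hairpin from the start of the miR-379 hairpin in kb; circles are 5p arms, squares are 3p arms, and lines run from the lowest to the highest of the 12 libraries, cut at the axis where the lowest is 0. High and low members lie side by side along the locus, with miR-376a-3p at 9099 CPM and miR-369-3p at 6554 CPM, and the grey area marks hairpins within Mirg.

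The cluster's share of the counts overlapped between WT and GLD2KO hippocampus, with a wider range in GLD2KO. The share was lowest at 1.89%, at the median 3.12% and highest at 3.27% in WT, and 2.24%, 3.15% and 5.70% in GLD2KO. The groups overlapped, and the means of 2.93 ± 0.528% and 3.45 ± 1.21% (SD, n = 6 each) differed by 0.519 percentage points, less than the pooled SD of 0.934. Counting error was small beside this: the 95% Wilson interval of the highest library, GLD2KO replicate 1, ran from 5.67% to 5.73%, and such intervals cover counting error only. Without that library the difference was 0.0692 percentage points, without GLD2KO replicate 4 it was 0.762, and without the 3 wide libraries it was 0.053. In bulk tissue, fewer cells of a type and less RNA per cell cannot be told apart.

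Most of the excess in GLD2KO replicate 1 was in the top pair. There miR-376a-3p alone held 2.0% of the library's counts and miR-369-3p 1.55%, while the WT libraries held 0.516% to 1.08% and 0.407% to 0.603%. In GLD2KO replicate 4 the pair parted: miR-376a-3p held 0.164% and miR-369-3p 0.929%. miR-376a-3p made up 7.32% of the cluster's counts in that library and up to 35.8% in others. Without the pair the remaining 69 members held 1.5 ± 0.391% in WT and 1.87 ± 0.412% in GLD2KO.

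**Figure D2:**
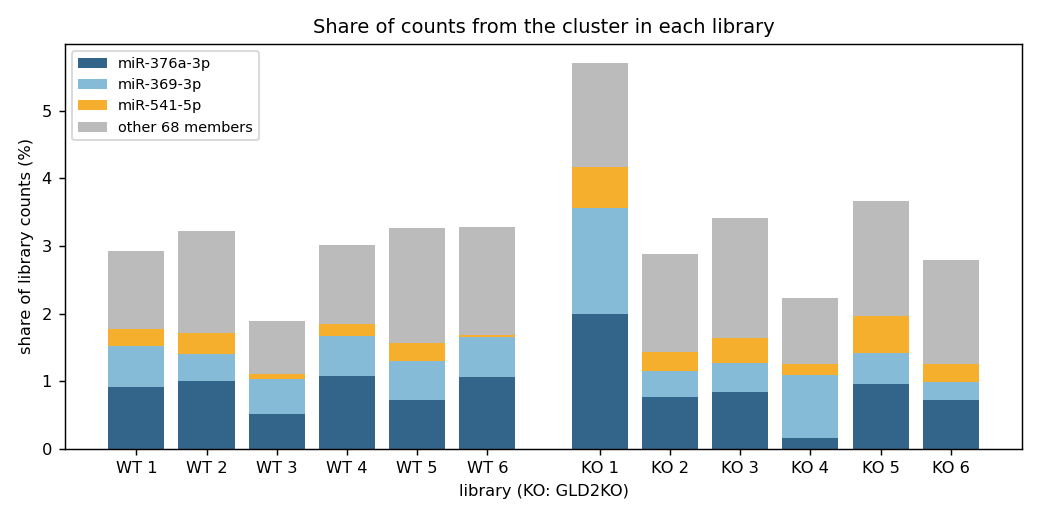
Share of each library's counts that came from the cluster, in percent, stacked by miR-376a-3p, miR-369-3p, miR-541-5p and the remaining members, for the 6 WT and 6 GLD2KO (KO) libraries. GLD2KO replicate 1 stands highest at 5.70% and WT replicate 3 lowest at 1.89%, and the other bars overlap between the genotypes.

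Divided by position, the hairpins within Mirg gave 1.2 ± 0.207% of WT counts and 1.62 ± 0.556% of GLD2KO counts. Those upstream of it gave 1.73 ± 0.338% and 1.83 ± 0.729%. GLD2KO replicate 1 was the highest library in each part, at 2.72% and 2.98%. Without the 3 wide libraries the groups overlapped in each part. The share within Mirg then ran from 1.148% to 1.35% in WT and from 1.197% to 1.62% in GLD2KO. The share upstream of it then ran from 1.633% to 2.006% in WT and from 1.493% to 2.044% in GLD2KO. Divided by arm, the 5p members held 0.775 ± 0.279% and 1.14 ± 0.283%, and the 3p members 2.16 ± 0.323% and 2.31 ± 1.08%. The 5p share ran from 0.340% to 1.081% in WT and from 0.619% to 1.43% in GLD2KO, so the groups overlapped, through GLD2KO replicate 4 alone. Without the 3 wide libraries, a set chosen after seeing the data, the groups did not overlap, by a narrow gap. The 5p share then ran from 0.619% to 1.081% in WT and from 1.084% to 1.43% in GLD2KO. The 3p share then ran from 2.16% to 2.48% in WT and from 1.63% to 2.23% in GLD2KO. These shares were not tested, and the shares of all 5p or all 3p arms are not given here. Log2 fold changes were positive for 18 and negative for 9 of the tested 5p members (median 0.17). For the tested 3p members they were positive for 15 and negative for 16 (median -0.04). Over all tested miRNAs 58.7% were higher in GLD2KO. Of either kind of member, 0 passed the test described next.

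No cluster member passed the test of a genotype difference. Enough counts for testing were held by 58 of the 71 members; the other 13 had 4 to 125 counts each over all libraries, together 0.0543% of the cluster's counts. In edgeR's quasi-likelihood test with Benjamini-Hochberg adjustment over all 521 tested miRNAs, 0 of the 58 reached an adjusted p of 0.05, where the share called over all tested miRNAs was 0.0%, and the lowest adjusted p of a member was 0.815. At an unadjusted p under 0.05 there was 1 member, miR-539-5p (1.72% of members against 4.8% of all tested miRNAs). By DESeq2, 0 of 70 members were called (0.0% of 1317 miRNAs) and 1 had an unadjusted p under 0.05 (1.43%, against 3.42% of all). By limma-voom 0 of 58 were called (0.0% of all) and 0 had an unadjusted p under 0.05 (4.41% of all). Without the 3 libraries that stood apart, 4 of 60 tested members had an unadjusted p under 0.05 (6.67%, against 6.51% of all tested miRNAs) and 0 passed adjustment.

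Point estimates lay close to 0 and to those of other miRNAs. In GLD2KO 33 members were higher and 25 lower (56.9% higher, against 58.7% of all tested miRNAs). The members' log2 fold changes had a median of 0.05, beside 0.12 over all tested miRNAs. This direction did not hold under every alternative: 26 of 58 members were higher by limma-voom (median -0.05), 22 of 58 with quality weights (median -0.11) and 28 of 60 without the 3 wide libraries (median -0.07), where 55.5%, 53.6% and 57.8% of all tested miRNAs were higher. The middle of the distribution ran from -0.21 to 0.33 (quartiles), 43 members were within 0.5 of no change, and 4 were beyond 1. Groups were without overlap for 0 members (0.576% of all tested miRNAs); without the 3 wide libraries this held for miR-1193-3p and miR-666-5p, beside 2.5% of all tested miRNAs. The p-values measure the spread between these samples, 1 library each, in which mice and library preparation cannot be told apart.

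The data bounded small differences only for some members. The 95% interval of the log2 fold change had a median half-width of 1.0 over members (a 2.01-fold change) and of 0.955 over all tested miRNAs. For 9 members (15.5%, against 17.1% of all tested miRNAs) the interval stayed inside a 2-fold difference in both directions: miR-411-5p, miR-411-3p, miR-485-5p, miR-376c-3p, miR-381-3p, miR-382-3p, miR-329-5p, miR-134-5p and miR-376a-3p. Closest to these limits were miR-376a-3p, with an interval of -0.96 to 0.99, and miR-134-5p, whose interval began at -0.95. Without WT replicate 5 the interval stayed within 2-fold for 4 members, and without the 3 wide libraries for 15. The share over all tested miRNAs was not taken in these settings, so these counts are not set against it. The biological coefficient of variation, edgeR's measure of spread between replicates, had a median of 0.572 over members and 0.548 over all tested miRNAs, with the lowest at 0.423 for miR-411-5p and the highest at 1.01 for miR-539-5p.

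**Figure D3:**
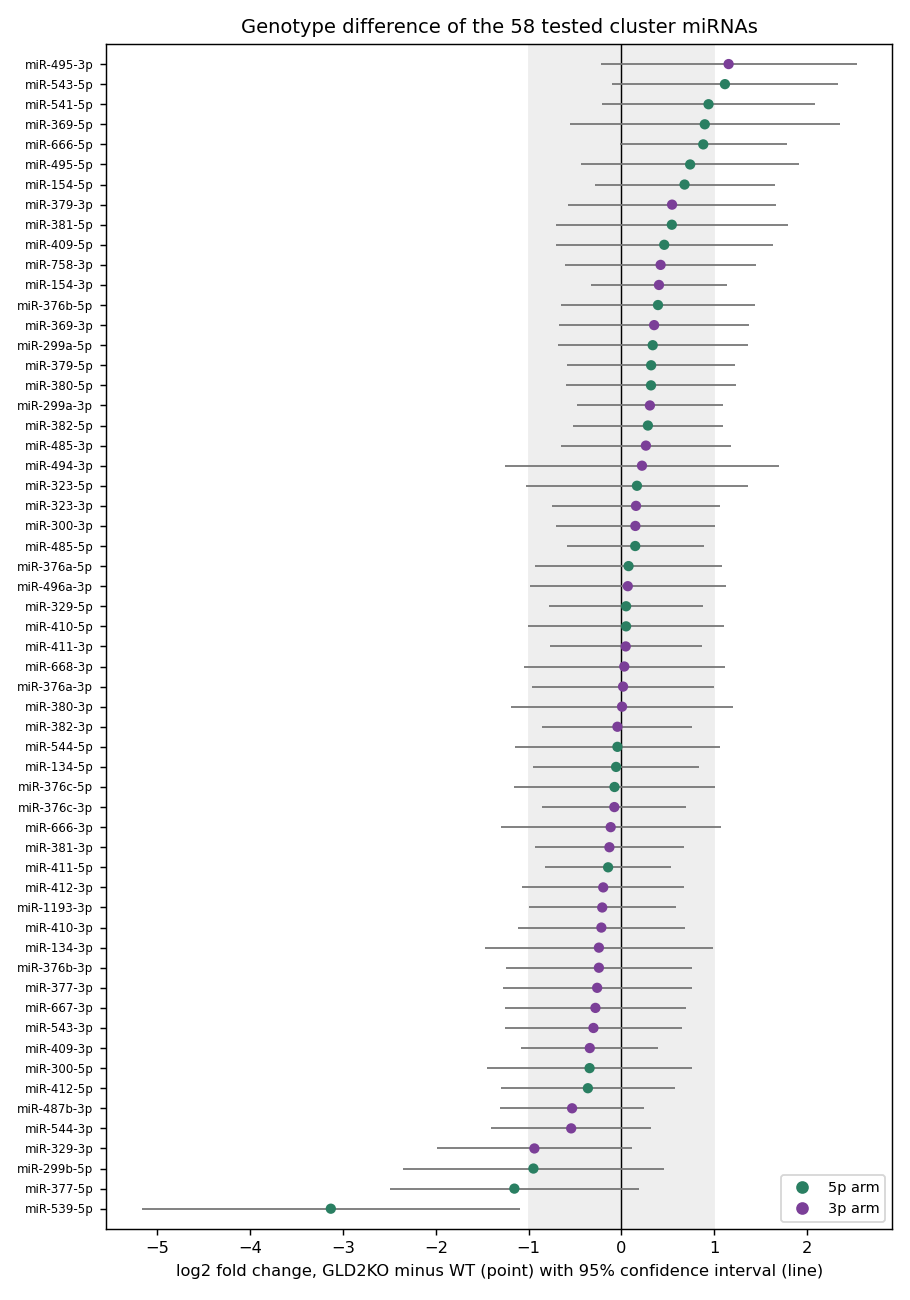
Log2 fold change (GLD2KO minus WT) of the 58 tested members in order of size, with an approximate 95% confidence interval from the edgeR fit. Green points are 5p arms, purple points are 3p arms, and the grey band marks changes of less than 2-fold. The intervals of all members but miR-539-5p include 0, and none passed adjustment.

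Of the members known for work at the synapse, miR-134-5p and miR-485-5p were among the 9 bounded within 2-fold. The level of miR-134-5p was lowest at 18.6, at the median 25.5 and highest at 44.2 CPM in WT, and 7.33, 28.0 and 42.9 CPM in GLD2KO. The ranges overlapped over most of their width, with GLD2KO replicate 1 low and WT replicate 3 high, and the log2 fold change was -0.06 (SE 0.43, edgeR adjusted p = 0.99). Its partner strand miR-134-3p was scarcer, at 1.77, 7.52 and 31.8 CPM in WT and 5.23, 7.86 and 15.7 CPM in GLD2KO; its log2 fold change of -0.24 became 0.52 without WT replicate 6.

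miR-485-5p, which represses the synaptic vesicle protein SV2A in rat hippocampal neurons, was at 109, 222 and 250 CPM (lowest, median, highest) in WT and 153, 217 and 362 CPM in GLD2KO. WT replicate 3 was the lowest library and GLD2KO replicate 5 the highest, and the groups overlapped. The log2 fold change was 0.15 (SE 0.35, interval -0.59 to 0.89), and -0.031 without GLD2KO replicate 5. miR-381-3p and miR-329-3p, known with miR-134 to be needed for activity-dependent growth of dendrites in rat neurons, differed in their estimates, -0.13 (SE 0.38) for miR-381-3p against -0.94 (SE 0.50) for miR-329-3p on the log2 scale, a contrast that was not tested. miR-329-3p was at 159, 456 and 1229 CPM in WT and 152, 217 and 605 CPM in GLD2KO, with overlapping groups, WT replicate 5 highest and an edgeR adjusted p of 0.841; without WT replicate 5 its log2 fold change was -0.51.

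The miR-379 pair of arms and miR-411 open the cluster. miR-379-5p was at 625, 745 and 921 CPM in WT and spread wider, to 256, 900 and 1996 CPM, in GLD2KO, where replicate 1 was lowest and replicate 4 highest. Its log2 fold change was 0.32 (SE 0.43), and -0.024 without GLD2KO replicate 4. miR-411-5p had the lowest spread of all members, at 141, 174 and 238 CPM in WT and 132, 173 and 199 CPM in GLD2KO, and a log2 fold change of -0.14 (SE 0.33, interval -0.83 to 0.54).

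Of the most abundant members, miR-376a-3p was at 6416, 8578 and 12232 CPM in WT and 2089, 6890 and 24514 CPM in GLD2KO. Both the highest and the lowest value of the study were in GLD2KO libraries, so the groups overlapped and the log2 fold change was 0.02 (SE 0.47); it was -0.55 without GLD2KO replicate 1. miR-369-3p was at 3709, 5762 and 8077 CPM in WT and 2727, 3678 and 19036 CPM in GLD2KO, with a log2 fold change of 0.35 (SE 0.49) that was -0.23 without GLD2KO replicate 1. In 4 of the 6 GLD2KO libraries miR-369-3p lay between 2727 and 4062 CPM, and in replicates 1 and 4 it was far above that.

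miR-541-5p was at 141, 2027 and 3353 CPM in WT and 2007, 2767 and 7449 CPM in GLD2KO. WT replicate 6, at 141 CPM, was far below every other library, the next lowest being WT replicate 3 at 1089 CPM, and the log2 fold change was 0.94 (SE 0.55, edgeR adjusted p = 0.885). miR-382-5p was at 633, 1366 and 2136 CPM in WT and 1126, 1572 and 2193 CPM in GLD2KO, largely overlapping, with a log2 fold change of 0.28 (SE 0.39). The log2 fold changes of the other members among the 10 most abundant were 0.01 for miR-380-3p (SE 0.57), 0.68 for miR-154-5p (SE 0.46), 0.39 for miR-376b-5p (SE 0.50), 0.16 for miR-323-3p (SE 0.43) and 0.05 for miR-329-5p (SE 0.39). Each of these rested in part on single libraries. Without GLD2KO replicate 1 the value of miR-380-3p was -0.63 and that of miR-323-3p -0.29. That of miR-376b-5p was 0.07 without GLD2KO replicate 5, that of miR-154-5p 0.38 without GLD2KO replicate 6 and that of miR-329-5p -0.028 without WT replicate 3. Leaving out 1 library, miR-541-5p ran from 0.63 to 1.17 and miR-382-5p from 0.18 to 0.50.

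The lowest p belonged to miR-539-5p (hairpin at chr12:109728129-109728202, upstream of Mirg), whose WT mean rested on a single mouse. It was at 1.77, 12.3 and 334 CPM in WT and 3.32, 7.18 and 13.7 CPM in GLD2KO. WT replicate 5 held the 334 CPM; the other 5 WT libraries averaged 11.1 ± 9.69 CPM and overlapped GLD2KO. Its log2 fold change was -3.13 (SE 0.97, edgeR adjusted p = 0.815), and -0.60 without that library. The opposite arm, miR-539-3p, was not raised with it, at 1.32 CPM in WT replicate 5 and 0 to 2.08 CPM elsewhere. With no low-count filter, edgeR gave miR-539-5p an adjusted p of 1.26e-05 (0.528% of 1325 miRNAs were called there), the only call of a cluster member under any alternative run.

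Next in order of p was miR-666-5p (hairpin at chr12:109717085-109717183), at 7.07, 26.1 and 36.7 CPM in WT and 23.7, 48.1 and 64.0 CPM in GLD2KO. GLD2KO replicates 1 and 4, at 23.96 and 23.7 CPM, lay inside the WT range, and the other 4 GLD2KO libraries, at 45.8 to 64.0 CPM, lay above it. The log2 fold change was 0.88 (SE 0.43, edgeR adjusted p = 0.841), and without the 3 wide libraries, which hold the lowest value of WT and those 2 of GLD2KO, it was 1.05 (unadjusted p = 0.00695, edgeR adjusted p = 0.743). miR-543-5p, at 9.80, 16.6 and 19.0 CPM in WT and 5.57, 17.9 and 107 CPM in GLD2KO, had a log2 fold change of 1.11 (SE 0.58) that was 0.28 without GLD2KO replicate 6; the other 5 GLD2KO libraries averaged 18.2 ± 13.9 CPM.

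miR-495-3p, known to repress Bdnf, was at 49.2, 141 and 577 CPM in WT and 33.0, 443 and 924 CPM in GLD2KO. The groups overlapped over most of their width. Its log2 fold change was 1.15 (SE 0.66, edgeR adjusted p = 0.844), and 1.83 without WT replicate 1, the highest WT library. miR-377-5p was at 4.12, 13.8 and 59.9 CPM in WT and 3.18, 10.7 and 21.4 CPM in GLD2KO. Its log2 fold change was -1.15 (SE 0.64), and -0.67 without WT replicate 5. The remaining members of the 10 with the lowest p were miR-487b-3p at -0.53 (SE 0.37) and miR-299b-5p at -0.95 (SE 0.67), which were -0.31 without WT replicate 3 and -1.6 without GLD2KO replicate 6, beside miR-541-5p, miR-154-5p and miR-329-3p given above.

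Other members with a described neuronal role or a place in the miR-376 family had log2 fold changes between -0.34 and 0.15. These were miR-409-3p, which helps set the identity of corticospinal neurons in mice, at -0.34 (SE 0.35), miR-543-3p at -0.30 (SE 0.46), miR-376b-3p at -0.24 (SE 0.48), miR-410-3p at -0.22 (SE 0.43), miR-376c-3p at -0.08 (SE 0.37) and miR-300-3p at 0.15 (SE 0.41). The groups of each overlapped. Leaving out 1 library, miR-409-3p ran from -0.43 to -0.20, miR-543-3p from -0.46 to -0.055, miR-376b-3p from -0.48 to 0.04, miR-410-3p from -0.36 to 0.0011, miR-376c-3p from -0.41 to 0.066 and miR-300-3p from -0.10 to 0.33.

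In most libraries members moved in different directions, while in WT replicate 3 their median was low. WT replicate 3 was the lowest library for 19 of the 58 tested members (32.8%, against 22.8% of all tested miRNAs). These were 9 5p and 10 3p arms from across the locus. The median deviation in this library was -0.76 over tested members and -0.18 over all tested miRNAs. GLD2KO replicate 1 was the highest library for 15 members (25.9%, against 19.2% of all tested miRNAs) and the lowest for 11 (19.0%, against 13.8%). There miR-376a-3p, miR-369-3p, miR-541-5p and both miR-495 arms were highest, while miR-134-5p, miR-379-5p, miR-410-3p and miR-412-5p were lowest. WT replicate 5 was highest for 7 members (12.1%, against 4.99% of all tested miRNAs), of which 6 were 5p arms. The 3 wide libraries together held the lowest value of 65.5% of members and the highest of 43.1%, against 48.6% and 47.6% of all tested miRNAs.

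**Figure D4:**
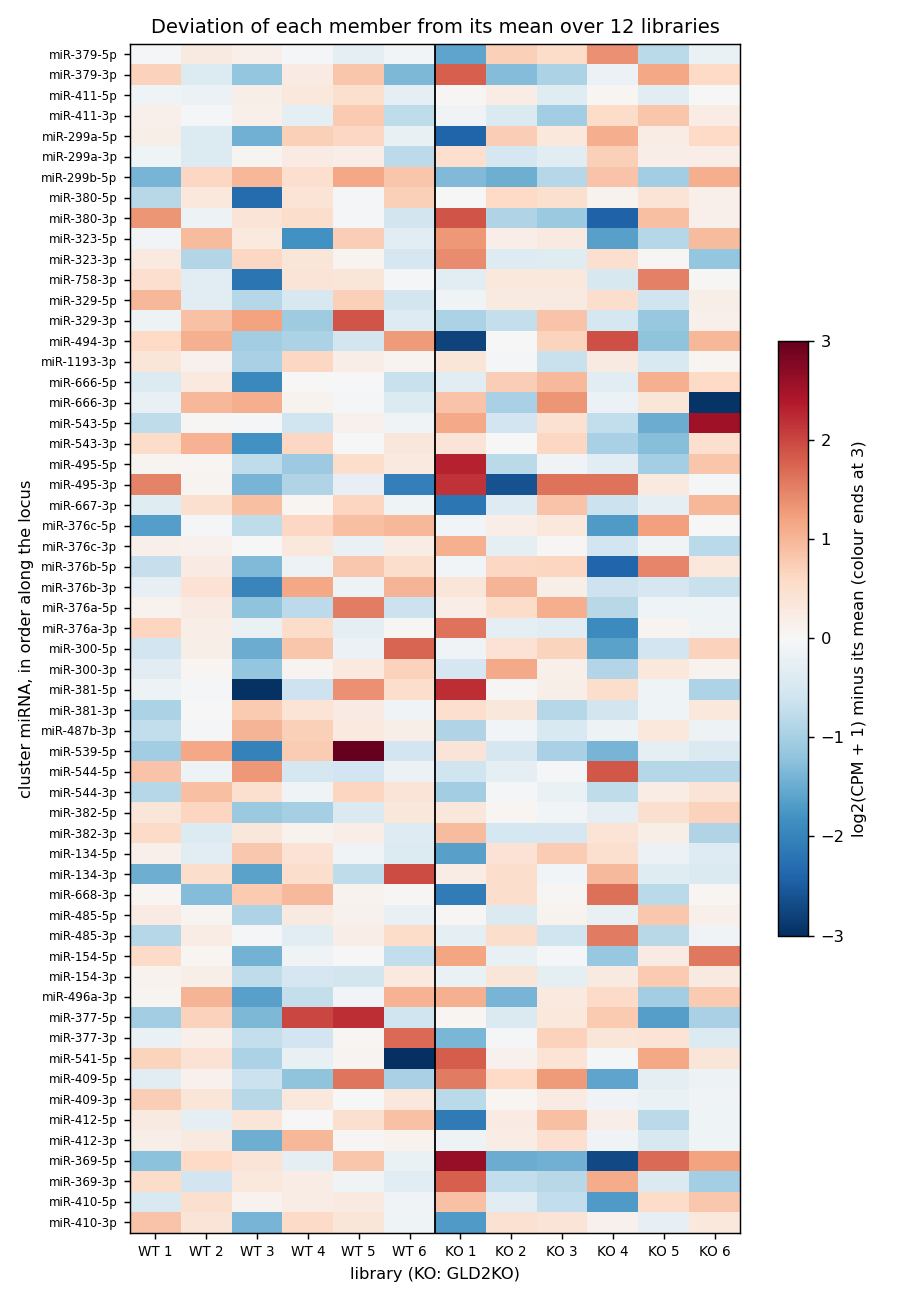
Each tested member's log2(CPM + 1) minus its own mean over the 12 libraries, with members in order along the locus (rows) and libraries in columns, WT left of the line and GLD2KO (KO) right of it; red is above the mean and blue below, with the colour scale ending at 3. Columns WT 3, KO 1 and KO 4 are the most strongly coloured, KO 1 in both directions, and single cells such as miR-539-5p in WT 5 stand out.

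Correlations of the deviations within genotype over the 12 libraries are given as a description since all pairs share the same libraries and scaling. The median Spearman coefficient was 0.01 for the 24 hairpins with both arms tested, 0.10 for 94 pairs of arms from neighbouring hairpins and 0.02 for the other 1535 pairs in the cluster, beside 0.01 for members paired with miRNAs outside it. The median Pearson coefficients were -0.09, 0.15, 0.05 and 0.01.

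The arms of 1 hairpin often differed widely in level. A ratio of 5p over 3p counts was available for 25 hairpins whose arms each averaged 10 counts or more. The 5p arm was the higher in all 12 libraries for 6 hairpins (miR-299a, miR-382, miR-154, miR-544, miR-376b and miR-412), the 3p arm for 11, and 8 were mixed. The most one-sided were miR-376a, with a mean log2 ratio of -7.04 (the 3p arm 132-fold higher), miR-323 at -6.38 and miR-369 at -6.06; at the other end were miR-299a at 3.5, miR-382 at 2.71 and miR-154 at 2.59.

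The miR-376 family shows how near neighbours differ. Its hairpins lie within the stretch from miR-376c (chr12:109722718-109722803) through miR-376b (chr12:109723458-109723539) to miR-376a. The miR-376b hairpin was counted mostly from its 5p arm, with log2 ratios from 1.03 to 3.31 in WT and 0.59 to 4.33 in GLD2KO. Those of miR-376a ran from -8.39 to -5.21 and from -8.47 to -5.59, and those of miR-376c from -5.67 to -2.58 and from -4.98 to -2.35. The ranges of miR-376b did not meet those of the others in any library, while miR-376b-5p and miR-376c-5p, printed above, are 1 edit apart, so a part of these 5p counts may be shared between the names.

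No arm ratio of the cluster passed a test of a genotype difference. In limma with Benjamini-Hochberg adjustment over all 167 such hairpins of the table, 0 of the 25 cluster hairpins passed an adjusted p of 0.05 (0.0% of all hairpins did), and 0 had an unadjusted p under 0.05 (1.2% of all). Differences, GLD2KO minus WT, ran from -0.70 to 1.54 with a median of 0.12, beside 0.06 over all hairpins, and 15 of 25 had a higher 5p share in GLD2KO (60.0%, against 50.3% of all). The difference of 1.54 was that of miR-666, with an interval of -0.18 to 3.25 (limma adjusted p = 0.922). Its log2 ratio was lowest at -2.32, at the median 0.62 and highest at 0.86 in WT, and -0.38, 1.11 and 4.91 in GLD2KO, with overlapping groups.

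**Figure D5:**
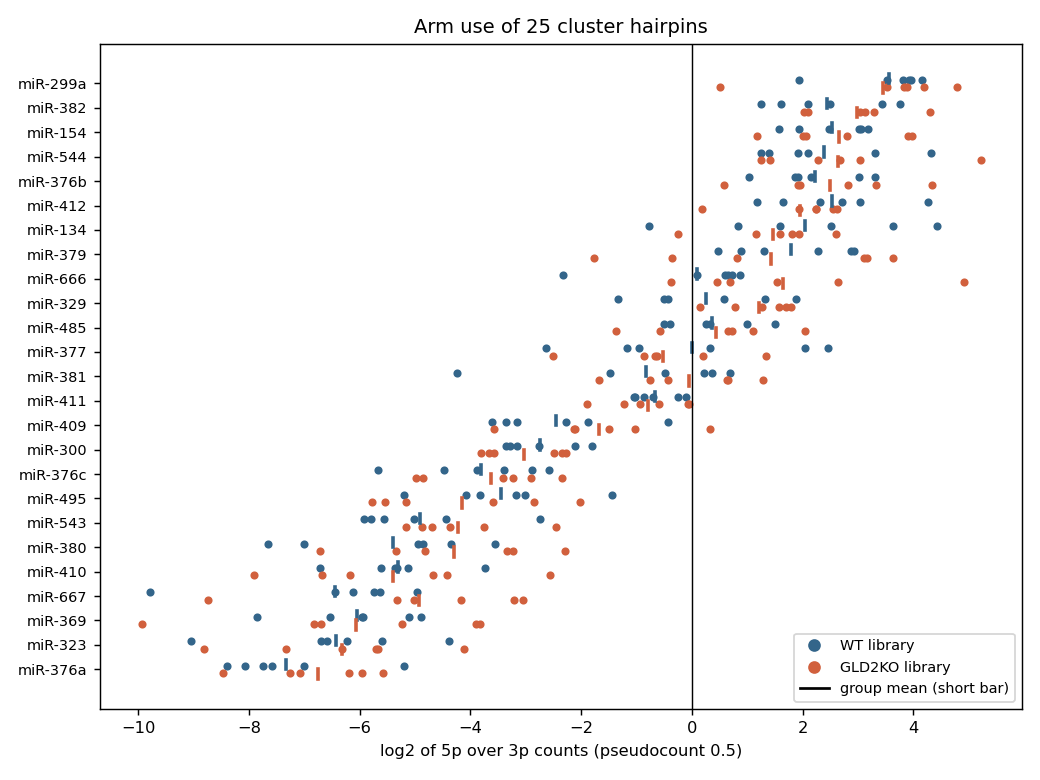
Log2 of 5p over 3p counts (pseudocount 0.5) of the 25 cluster hairpins with enough counts in both arms, 1 point per library, blue for WT and orange for GLD2KO, with a short bar at each group mean. Hairpins run from miR-376a, at a mean of -7.04, to miR-299a, at 3.5, and the points of both genotypes overlap for every hairpin.

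Since Gld2 acts on 3′ ends, members were also described by the last base of the mature sequence. U was the last base of 50.9% of the 55 tested members with a sequence and of 38.9% of the 432 tested miRNAs with one. The median log2 fold change was -0.02 for the 28 members ending in U, 0.07 for 13 ending in C, 0.28 for 11 ending in G and 0.39 for 3 ending in A. Over all tested miRNAs these medians were 0.02, 0.15, 0.18 and 0.09.

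The other miRNAs of the Dlk1-Dio3 domain, 35 with a count and 25 tested, were taken as the rest of the locus. In GLD2KO 18 were higher and 7 were lower, where 58.7% of all tested miRNAs were higher, and 0 passed the test. Log2 fold changes had a median of 0.20, beside 0.12 over all tested miRNAs. The share of these other miRNAs was 2.8 ± 0.733% in WT and 4.23 ± 1.87% in GLD2KO, with overlapping ranges of 1.79% to 3.97% and 2.66% to 7.90%. Without the 3 wide libraries the ranges were 2.55% to 3.97% and 2.66% to 4.18%. In GLD2KO replicate 4 they were at their highest, 7.90%, while the miR-379 to miR-410 cluster was at its lowest share in GLD2KO, 2.24%.

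Markers of other cell types varied between libraries, and their part in the results was not tested. Summed levels in WT and GLD2KO were 8949 to 40433 and 9373 to 30748 CPM for the 4 oligodendrocyte miRNAs, 1823 to 5545 and 1680 to 24264 CPM for the 10 miRNAs of choroid plexus and ciliated cells, and 4802 to 16047 and 6642 to 10210 CPM for the 4 vascular miRNAs. Of 5 listed blood miRNAs, the 3 found under the listed names summed to 678 to 22971 and 1182 to 24306 CPM. Of 3 microglial miRNAs only miR-223-3p was found under the listed name, at 6.94 to 352 and 20.04 to 87.4 CPM. miR-142-3p, miR-142-5p and miR-486 were counted under names other than those listed, and are not in these sums. None of the listed markers in the table was at 0 over all libraries. The highest WT sums for oligodendrocyte and vascular miRNAs and the highest WT level of miR-223-3p were in WT replicate 3. Those for neuronal, blood, and choroid plexus and ciliated cell miRNAs were in WT replicates 1, 2 and 6. The 24264 CPM for choroid plexus and ciliated cells was that of GLD2KO replicate 6.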

How the data were processed

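Small RNAs of mouse hippocampus, cut from a gel by size and sequenced on an Illumina HiSeq instrument per the labels' protocols, were counted by the authors in 6 WT and 6 GLD2KO libraries. The size range differs between the sources and is not given here. Trimmomatic 0.32, cutadapt 1.3 and build GRCm38 are named in the submitters' processing notes; the aligner, the counter, the annotation and the treatment of shared reads were not given in the sources used here. The deposited values are whole-number counts per mature miRNA, not normalized by the authors, and no molecular identifiers are named. Of 1908 miRNAs listed, 1325 had a count; 1 row with no name held 0 counts and was left out.

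Groups and replicate numbers came from the sample titles. Counts were tested over the whole table with edgeR 4.0.16 under R 4.3.3 (filterByExpr, TMM factors, glmQLFit, glmQLFTest, Benjamini-Hochberg, threshold 0.05), which kept 521 miRNAs. Log2 fold changes are GLD2KO minus WT. The SE was taken from the same fit. CPM used TMM-scaled totals, while shares used unscaled totals. Arm ratios (pseudocount 0.5) were tested with limma 3.58.1. DESeq2 1.42.0, limma-voom, other scalings and filters, the replicate number as a block and leaving out libraries were alternatives. Leaving out 3 wide libraries together, and the share without its top pair, were chosen after seeing the data. Scripts were tested on simulated data. Hairpins were placed with RefSeq and GENCODE M21, both on GRCm38.

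Members, lists and tests were chosen with earlier results of these data known. Named members are the 10 most abundant, the 10 with the lowest p, those with groups without overlap or with a far library, and 18 listed for a neuronal role, their family or their level; miR-1193-3p and single arms or libraries were also named after their values were seen.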

Additional observations from a re-analysis of the deposited data

Results flagged for a closer look

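In 21 of the 168 groups of 6 values looked at (the tested members' levels, arm ratios and the cluster share in each genotype), the highest or the lowest library lay further from its nearest neighbour than Dixon's 95% critical value allows. Chance flags about 1 group in 20 where values are independent and normal; levels in CPM are skewed and all groups share the same 12 libraries, so no chance count is set against the 21. Over all tested miRNAs 14.8% of groups of levels had such a library, against 12.9% for members, and over all hairpins 9.28% of groups of arm ratios, against 10% for cluster hairpins. All 15 levels of members were on the high side. By library, 6 of these values were in GLD2KO replicate 1, 4 in WT replicate 3, 3 in WT replicate 5, 2 each in WT replicate 6, GLD2KO replicate 4 and GLD2KO replicate 5, and 1 each in WT replicate 1 and GLD2KO replicate 6.

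In GLD2KO replicate 1 the high levels were miR-376a-3p at 24514 CPM (2089 to 8354 in the other 5 GLD2KO libraries), miR-376c-3p at 491 CPM (133 to 240), miR-381-5p at 439 CPM (49.3 to 135) and miR-495-5p at 76.3 CPM (6.76 to 27.03). The low 5p over 3p ratios, on the log2 scale, were miR-299a at 0.51 (3.52 to 4.78 in the others) and miR-412 at 0.18 (1.94 to 2.61).

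In WT replicate 3 all 4 values were low: the cluster share at 1.89% (2.93% to 3.27% in the other WT libraries) and the log2 arm ratios of miR-299a at 1.94 (3.52 to 4.15), miR-666 at -2.32 (0.09 to 0.86) and miR-667 at -9.79 (-6.45 to -4.97).

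In WT replicate 5 the 3 high values were all 5p arms: miR-539-5p at 334 CPM (1.77 to 24.4), miR-409-5p at 229 CPM (31.8 to 82.7) and miR-376a-5p at 174 CPM (25.3 to 70.6). In WT replicate 6 both were 3p arms, miR-377-3p at 48.0 CPM (8.24 to 15.8) and miR-134-3p at 31.8 CPM (1.77 to 11.2). WT replicate 1 was high for miR-495-3p at 577 CPM (49.2 to 217).

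Of the remaining GLD2KO libraries, replicate 4 was high for miR-544-5p at 237 CPM (34.99 to 62.4) and miR-485-3p at 462 CPM (88.3 to 227). Replicate 5 was high for miR-485-5p at 362 CPM (153 to 231) and miR-758-3p at 27.4 CPM (6.17 to 11.5). Replicate 6 was high for miR-543-5p at 107 CPM (5.57 to 39.6).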

How the results depend on the processing

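Libraries held 2197915 to 3761106 counts, and the 13 untested members had at most 125 counts each. With 1 library per mouse, spread between mice and between library preparations cannot be told apart. The count of members past an adjusted p of 0.05 stayed at 0 under every alternative but 1: with no low-count filter it was 1, miR-539-5p (adjusted p = 1.26e-05, with 7 calls among 1325 miRNAs). The count at an unadjusted p under 0.05, 1 in the fit reported, was 2 with upper-quartile factors (3.45%, against 4.99% of all miRNAs tested), 8 with no filter (11.3%, against 6.42%), 0 with a filter of at least 10 CPM in 6 libraries (against 4.01%), 0 with limma-voom (against 4.41%), 2 with quality weights (3.45%, against 6.72%) and 4 without the 3 wide libraries (6.67%, against 6.51%); leaving out 1 library it ran from 1 to 3. Without the 3 wide libraries, 2 members had groups without overlap and 15 had intervals within 2-fold, the latter 4 to 10 when 1 library was left out. For such intervals the share over all miRNAs was not taken in these settings. Members higher in GLD2KO, 33 as reported, numbered 30 to 35 of 58 under other scalings, 26 with limma-voom, 22 with quality weights, 27 with the replicate block (median -0.07) and 28 of 60 without the 3 wide libraries. Leaving out 1 library they numbered 29 to 38, the share difference ran from 0.0692 to 0.762 percentage points, and the cluster median log2 fold change from -0.06 to 0.09.

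The labels do not say whether a shared replicate number marks a pair of samples. Same-numbered deviations correlated at -0.23 to 0.24 across miRNAs, and 1 of 6 WT libraries correlated best with its own number. Weak correlations cannot show that the samples were unpaired, so the block was kept as an alternative. With the replicate block 0 members had an unadjusted p under 0.05 (3.26% of all miRNAs did). Of 848 recomputed log2 fold changes of the 37 named members, 831 kept their direction and side of the threshold or changed sign by a move smaller than the SE. Such small changes of sign numbered 64. Another 16 reversed with a move larger than the SE, and the causes were not tested. These were miR-134-3p with the replicate block (0.36); miR-369-3p (-0.36) and miR-495-5p (-0.24) with quality weights; and, without the 3 wide libraries, miR-323-3p (-0.29), miR-369-3p (-0.69), miR-381-5p (-0.47) and miR-495-5p (-0.085). The other 9 were with 1 library left out, over which values ran from -0.45 to 0.52 for miR-134-3p, -0.29 to 0.36 for miR-323-3p, -0.23 to 0.51 for miR-369-3p, -0.55 to 0.25 for miR-376a-3p, -0.47 to 0.34 for miR-377-3p, -0.63 to 0.30 for miR-380-3p, -0.11 to 0.97 for miR-381-5p, -0.21 to 0.42 for miR-485-3p and -0.065 to 0.96 for miR-495-5p.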
